A study of Homo sapiens with 56 samples.

Results

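The genes described here serve antigen processing and presentation. Of 10 named genes, TAP1, TAP2, TAPBP, PSMB8, PSMB9, B2M and NLRC5 belong to the MHC class I machinery, and CIITA, CD74 and HLA-DRA to MHC class II. Each was to be read from a probe set annotated to a single gene, with the brightest such probe set kept for a gene, and 8 of the 10 genes had one, among 18377 genes measured in all. CD74 and HLA-DRA had none and are given no level. The material was total RNA of 28 established lines of ovarian cancer cells, hybridised to 56 Affymetrix Human Gene ST arrays (2 a line), with no treatment to compare. The study placed these lines along a gradient of epithelial-mesenchymal transition (EMT). By base medium, DMEM was used for 10 lines, RPMI for 9 and DMEM/F12 for 7, while UWB1.289 and TOV112D had media of their own. All media held fetal bovine serum, at 10% for 22 lines, 20% for EFO21 and OVCAR3, 5% for OV7, OV17R and OV56 and 3% for UWB1.289. OV7, OV17R and OV56 also had hydrocortisone and insulin, and OAW28, OAW42, OVCAR2, OVCAR3 and OVCAR5 had insulin. Each name stands for 1 line, and the labels do not say whether its 2 arrays came from separate cultures, so p-values between lines rest on array spread alone and that spread may be technical.

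In every nucleated cell, proteasomes cut proteins into peptides, a transporter carries these into the endoplasmic reticulum, and a loading complex places them on class I molecules that then travel to the cell surface. Interferon gamma raises most genes of this route, partly through IRF1 and the interferon-stimulated response element (ISRE) in their promoters, and partly through NLRC5, which acts at an enhanceosome on the S, X and Y boxes. Class II molecules take peptides from endosomes instead, are made mainly by professional antigen-presenting cells, and depend on CIITA, although epithelial and tumour cells can make them.

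The promoters are shown because several of these genes moved together over the lines. RefSeq windows from 250 bases before to 50 bases after a start site (300 bases, build GRCh38.p14) were at hand for 6 of the 8 measured genes, and NLRC5 and CIITA had none. Motifs were searched on both strands, and the shares that follow are of 35116 promoter windows of the same length. These genes had 8 windows, since TAP1 and PSMB8 had 2 each. The ISRE core GAAANNGAAA was found in 5 of the 8 (1 each of TAP1, TAP2, TAPBP, PSMB8 and B2M, and not in the second windows of TAP1 and PSMB8) and in 3.57% of all windows. The 80 bases around it, read 5′ to 3′ on the gene's strand, lie at chr6:32838753-32838832 for TAP2, chr6:32844007-32844086 for one of the 2 PSMB8 start sites and chr6:33314051-33314130 for TAPBP, all on the minus strand, with the cores in capitals (in PSMB8 the core is on the opposite strand).
TAP2: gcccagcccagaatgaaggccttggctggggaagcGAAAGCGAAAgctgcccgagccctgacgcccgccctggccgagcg
PSMB8: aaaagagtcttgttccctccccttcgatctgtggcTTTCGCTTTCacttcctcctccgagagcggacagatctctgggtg
TAPBP: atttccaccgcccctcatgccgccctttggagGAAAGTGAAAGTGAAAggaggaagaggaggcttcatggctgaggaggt
In TAPBP and TAP1, 2 cores overlapped. TAP1 and PSMB9 lie head to head, with start sites 488 bases apart on opposite strands and windows that share 13 bases. The TAP1 window at chr6:32853655-32853954 (minus strand) held its 2 cores at positions -134 and -128 from the start, while the PSMB9 window at chr6:32853942-32854241 (plus strand) held none. Capitals in the windows below mark the ISRE core, the X1 box core AGNAACNG (15.6% of all windows), the X2 box core TGACG (24.6%) and the Y box CCAAT (34.6%). The gamma-activated site TTCNNNGAA (7.66%) was searched too and was not found in these 3 windows. The CCAAT of TAP1 and of PSMB9 is the same stretch, at the shared edge.
TAP1: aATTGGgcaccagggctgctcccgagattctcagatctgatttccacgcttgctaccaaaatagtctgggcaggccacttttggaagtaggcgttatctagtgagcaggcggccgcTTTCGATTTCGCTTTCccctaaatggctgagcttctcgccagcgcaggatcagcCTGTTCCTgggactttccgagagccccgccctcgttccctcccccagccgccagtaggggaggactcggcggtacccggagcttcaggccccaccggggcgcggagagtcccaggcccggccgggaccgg
PSMB9: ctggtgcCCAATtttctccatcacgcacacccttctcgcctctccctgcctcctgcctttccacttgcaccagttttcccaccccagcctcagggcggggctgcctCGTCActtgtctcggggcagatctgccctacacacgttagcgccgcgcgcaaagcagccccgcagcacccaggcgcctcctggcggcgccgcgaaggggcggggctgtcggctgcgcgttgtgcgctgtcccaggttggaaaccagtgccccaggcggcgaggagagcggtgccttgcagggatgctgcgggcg
The B2M window (chr15:44711267-44711566, plus strand) held 2 overlapping ISRE cores, an X2 core and a Y box, in this order towards the start.
B2M: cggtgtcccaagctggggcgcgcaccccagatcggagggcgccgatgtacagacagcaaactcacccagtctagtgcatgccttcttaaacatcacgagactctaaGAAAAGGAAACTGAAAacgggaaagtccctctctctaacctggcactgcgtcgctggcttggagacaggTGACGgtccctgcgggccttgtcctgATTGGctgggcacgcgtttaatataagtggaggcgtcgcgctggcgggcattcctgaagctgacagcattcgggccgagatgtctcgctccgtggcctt
A match is a run of letters and not a measured binding site.

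Values are log2 intensities after the authors' robust multi-array averaging (RMA), and levels were not set against each other between genes, since probe sets differ in brightness. 3 arrays, HEYC2 replicate 1, OV56 replicate 2 and OVCA420 replicate 1, stood apart from their duplicates, with correlations over all genes of 0.615 to 0.806 within these 3 lines and at least 0.980 in the other 25. Their values had an SD of 1.84 to 1.89, against 2.09 to 2.32 on the other arrays, and the named genes are also given without them where this changes a call or an extreme line. Replicate numbers are those of the sample titles, and for JHOS4, which 1 label spells JHSO4, the descriptions number the arrays the other way round. Among 9 measured carcinoma markers, KRT8 ran from 9.01 to 13.74. PAX8 ran from 6.29 in CAOV3 to 10.95 and KRT7 from 5.94 in OAW42 to 13.33. EPCAM, an epithelial adhesion molecule, ran from 4.57 in HEYC2 to 14.53 in PEO1. At their lowest these last 3 were near the array medians (5.961 to 6.306) or below. Among 7 measured fibroblast genes, LUM was highest in OVCAR2 (10.37), DCN in OV7 (9.03), THY1 in OV17R (10.68) and COL3A1 in TOV112D (10.03). Of 18 measured leukocyte genes, 7 (38.9%) passed the F test described below, against 65.7% of all genes. The median range of the 18 was 0.93, against 1.72 over all genes. PTPRC, the pan-leukocyte CD45, ran from 2.80 to 3.93 (3.63 without the 3 arrays). Calls of a line against the rest numbered 3 of 504 (0.595%), all up, against 3.78% called up over all genes. They were CD14 in CAOV3 (1.80 higher) and OV7 (1.69) and LYZ in TYKNU (1.74). The summed level of the 18 genes ran from 86.6 in SKOV3 to 97.3 in OVCA420, with the 3 lines that hold an array standing apart at the top.

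The 7 class I genes differed between the lines far beyond the spread of duplicate arrays, and their orders over the lines were alike, whereas CIITA varied little. By limma's moderated F test over 28 lines, all 7 class I genes passed, with adjusted p-values of 2.9e-17 for PSMB9 to 3.74e-06 for NLRC5, and CIITA did not pass (adjusted p = 0.164). In all, 7 of 8 genes were called against a background of 65.7% of all genes, so the count by itself says little about these genes. Highest and lowest line means lay 5.13 log2 units apart for PSMB9, 4.72 for PSMB8, 3.86 for TAP1, 3.26 for B2M, 2.87 for TAP2, 2.17 for TAPBP, 1.76 for NLRC5 and 0.88 for CIITA, against a median of 1.72 over all genes, which NLRC5 hardly exceeded and CIITA did not reach.

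**Figure D1:**
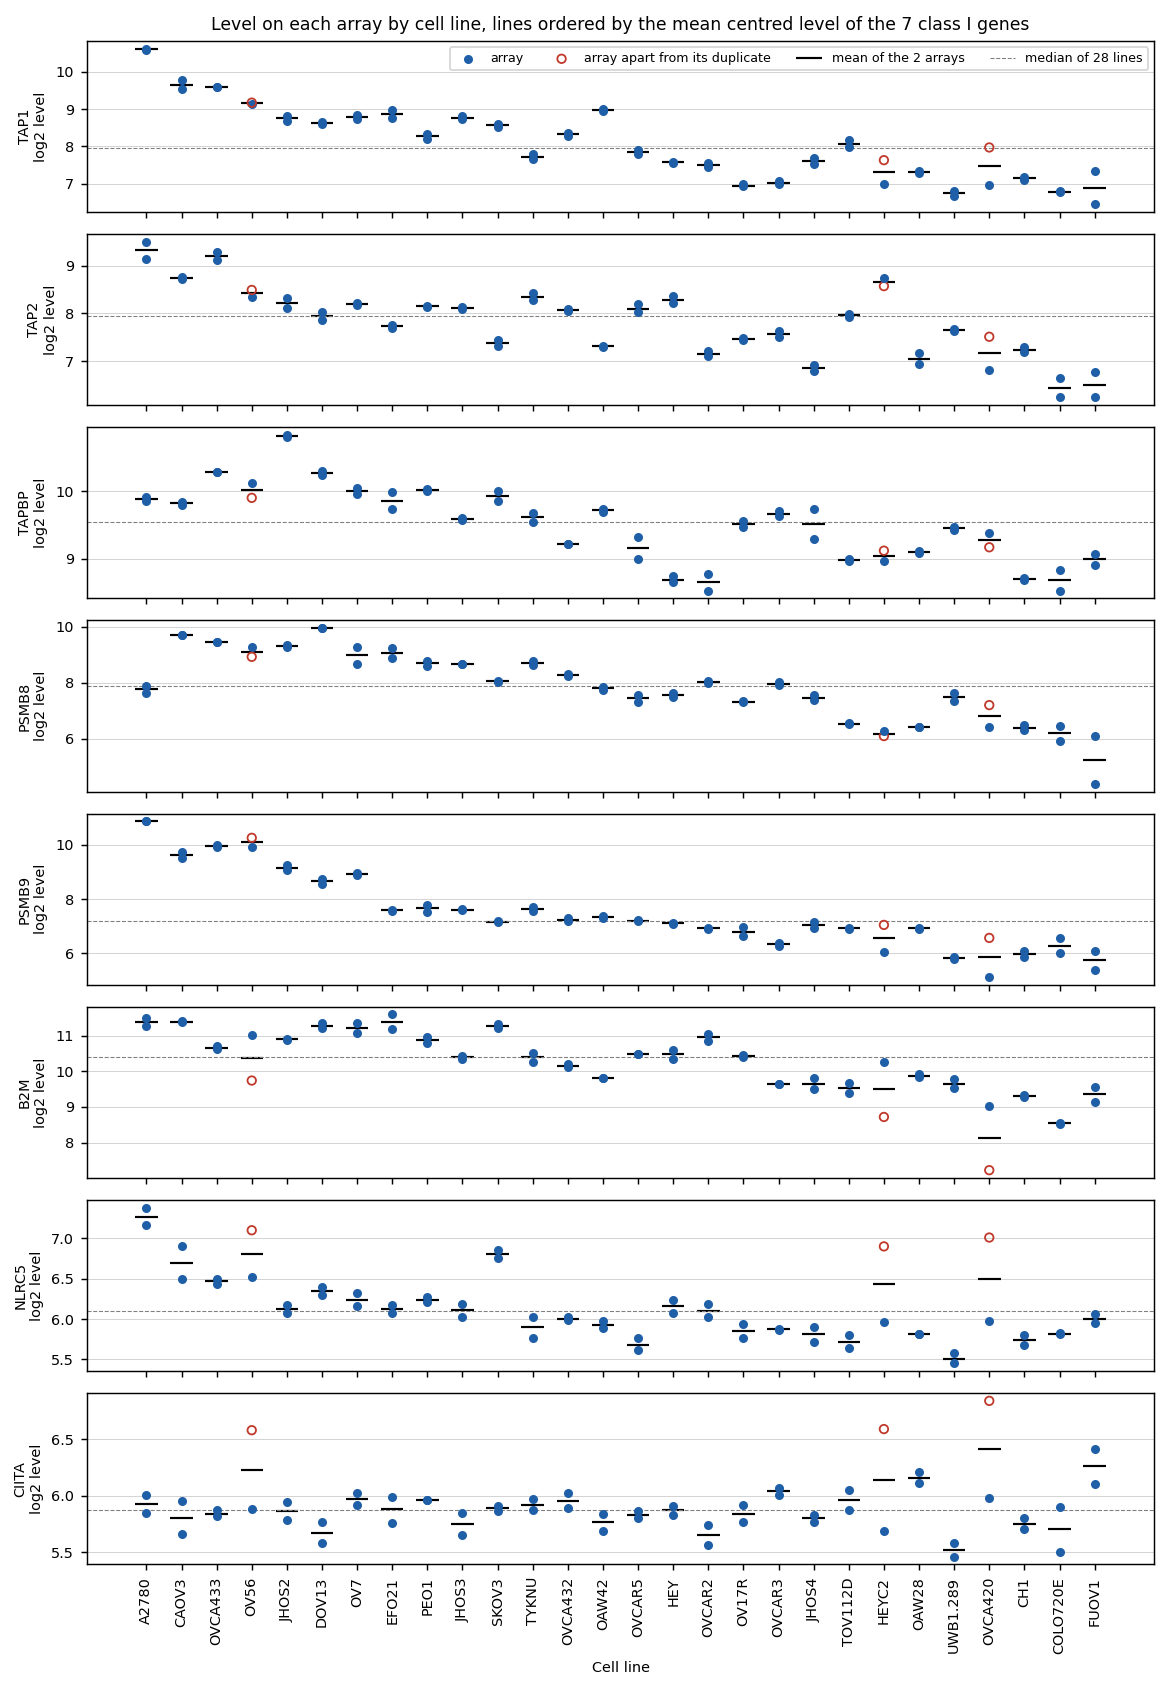
Level (log2 intensity) of the 8 genes on each array in 28 cell lines, ordered by the mean centred level of the 7 class I genes. Points are arrays, bars the mean of the 2 arrays of a line, open circles the 3 arrays that stand apart, dashed lines the median of the lines. The class I genes fall from A2780 on the left to FUOV1 on the right with gene-specific exceptions such as PSMB8 in A2780 (7.77), and CIITA stays between 5.52 and 6.41.

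PSMB8 and PSMB9 encode catalytic subunits (β5i and β1i) that replace their constitutive counterparts in the immunoproteasome. PSMB9 was lowest in FUOV1 at 5.74 and highest in A2780 at 10.87, with a median of 7.19 over the lines. Its arrays read 10.87 and 10.87 in A2780, 9.92 and 10.26 in OV56 (the second of these stands apart) and 10.00 and 9.93 in OVCA433. At the low end they read 6.57 and 5.13 in OVCA420, 5.86 and 5.78 in UWB1.289 and 5.39 and 6.09 in FUOV1. The high lines shared no values with the low ones, which is largely set by picking the 2 ends of the order. Along the order of lines, neighbours lay more than 2 moderated SDs (0.28 each) apart in 2 of 27 places, A2780 over OV56 and DOV13 over PEO1, and 7 lines, A2780, OV56, OVCA433, CAOV3, JHOS2, OV7 and DOV13, stood above the second of these gaps. With the array of OVCA420 that stands apart left out, OVCA420 was the lowest line at 5.13, and the range was 5.74.

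PSMB8 ran from 5.24 in FUOV1 through a median of 7.88 to 9.96 in DOV13. The arrays of DOV13 read 9.96 and 9.95, those of CAOV3 9.71 and 9.70 and those of OVCA433 9.45 and 9.47, so the 3 highest lines were tight. The lowest line was not, with 4.38 and 6.10 in FUOV1, and it was the only place where neighbours lay more than 2 SDs apart. HEYC2 (6.09 and 6.27) and COLO720E (6.44 and 5.93) came next and overlapped, and the second array of FUOV1 fell among theirs. PSMB8 and PSMB9 lie on chromosome 6 with TAP1 between them. A2780, the top line for PSMB9 and TAP1, was in the 16th place for PSMB8, at 7.77 against a mean of 7.88 in the other 27 lines (difference -0.11, adjusted p = 0.87).

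TAP1 and TAP2 form the heterodimer that pumps peptides into the endoplasmic reticulum. TAP1 was lowest in UWB1.289 at 6.74 and highest in A2780 at 10.61, with a median of 7.96. Its arrays read 10.59 and 10.62 in A2780, 9.77 and 9.53 in CAOV3 and 9.60 and 9.59 in OVCA433, and at the other end 6.45 and 7.33 in FUOV1, 6.80 and 6.78 in COLO720E and 6.68 and 6.81 in UWB1.289. A2780 stood clear of CAOV3 by more than 2 SDs, and no other neighbours did. TAP2 ran from 6.44 in COLO720E through 7.95 to 9.32 in A2780, with OVCA433 (9.28 and 9.12) beside A2780 (9.50 and 9.13) and the next line, CAOV3 (8.72 and 8.76), more than 2 SDs below them. FUOV1 (6.24 and 6.78) and COLO720E (6.64 and 6.25) overlapped at the low end, with JHOS4 (6.91 and 6.80) just above. HEYC2 was high for TAP2 at 8.57 and 8.73, in the 4th place, although it was in the 22nd for TAP1 and the 27th for PSMB8.

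TAPBP encodes tapasin, which holds class I molecules at the transporter while peptides are loaded. It ran from 8.65 in OVCAR2 through 9.55 to 10.82 in JHOS2, where the arrays read 10.83 and 10.80 and stood clear of OVCA433 (10.28 and 10.28) and DOV13 (10.29 and 10.24). The 3 lowest lines, HEY at 8.69, COLO720E at 8.68 and OVCAR2 at 8.65, did not differ beyond the spread of their arrays. Of its 3 probe sets the brightest was kept, and the other means were 8.40 and 9.29 against its 9.52.

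B2M encodes β2-microglobulin, the invariant light chain of class I molecules. It ran from 8.13 in OVCA420 through 10.39 to 11.39 in CAOV3. The highest lines, CAOV3 (11.40 and 11.39), EFO21 (11.17 and 11.59) and A2780 (11.50 and 11.26), overlapped, and no neighbours in the whole order lay more than 2 SDs apart. The low end rests on arrays in doubt, since OVCA420 read 7.23 on the array that stands apart and 9.03 on its duplicate. Without the 3 arrays COLO720E (8.56 and 8.53) was the lowest line and the range was 2.85. All 3 arrays read B2M lower than their duplicates did, by over 1 log2 unit.

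NLRC5 encodes the NOD-like transactivator of class I genes. It ran from 5.51 in UWB1.289 through 6.10 to 7.27 in A2780 (7.38 and 7.17), which stood clear of OV56 and SKOV3 (6.75 and 6.86). OV56 read 6.52 on one array and 7.10 on the array that stands apart. At the low end TOV112D at 5.72, OVCAR5 at 5.68 and UWB1.289 at 5.51 were close together. CIITA, the class II transactivator, ran only from 5.52 in UWB1.289 through 5.87 to 6.41 in OVCA420. The SD of line means of CIITA was 0.20 and its moderated SD of single arrays 0.23. These are not on the same scale, since a line mean averages 2 arrays and so varies less than 1 array. The highest CIITA values were not all from sound arrays. The highest reading of CIITA, 6.84 in OVCA420, and those of 6.59 in HEYC2 and 6.58 in OV56 were all on the arrays that stand apart, against 5.98, 5.69 and 5.88 on their duplicates. Without these arrays the adjusted p of CIITA was 0.00948 with a range of 0.73 and FUOV1 (6.10 and 6.41) at the top, so its lines then passed the test with a smaller range.

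Each line was then set against the mean of the other 27 in the same limma fit, and a difference was called at an adjusted p under 0.05 and at least 1 log2 unit. Of 224 gene-by-line differences, 28 (12.5%) were called up, against a background of 3.78% over all genes, and 24 (10.7%) down, against 3.56%. The calls fell on 9 lines that were only high and 11 that were only low, no line had both, and 8 had none. After a further quantile normalization TAP2 in HEYC2 was called up (1.11), so that line then had calls in both directions. CIITA was called in no line and NLRC5 and TAPBP in 1 each. PSMB8 and PSMB9 were each up in 7 lines and down in 7.

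A2780 was high for 5 of the 8 genes, against 3.41% of all genes called up in that line. PSMB9 was 10.87 in A2780, against 7.41 in the other lines, a difference of 3.46 (standard error 0.20, adjusted p = 6.25e-15). TAP1 was 2.59 higher (adjusted p = 3.15e-14), TAP2 1.54 higher, B2M 1.17 higher and NLRC5 1.17 higher (adjusted p = 1.58e-06), while TAPBP and PSMB8 were not called. Without replicate 1 of A2780, B2M there was no longer called (adjusted p = 0.102).

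CAOV3 and OVCA433 were each high for 4 genes, against 5.17% of all genes called up in CAOV3 and 2.63% in OVCA433. PSMB9 was 2.16 higher in CAOV3 and 2.52 higher in OVCA433, PSMB8 1.89 and 1.64 higher, and TAP1 1.60 and 1.55 higher than in the other lines. B2M was the fourth gene in CAOV3 (1.19 higher) and TAP2 in OVCA433 (9.20, against 7.78 in the other lines). Without replicate 1 of CAOV3, B2M there was no longer called. OV56 was called for TAP1, PSMB8 and PSMB9, also without its doubtful array, JHOS2 for TAPBP, PSMB8 and PSMB9, and DOV13 and OV7 for PSMB8, PSMB9 and B2M. EFO21 was high for PSMB8 and B2M, by 1.23 and 1.17, and had PSMB9 at 7.59, against 7.53 in the other lines. SKOV3 was high for B2M alone. For OV56, JHOS2, DOV13, OV7, EFO21 and SKOV3 the share of all genes called up in the line is not given here. Over all 28 lines it was 3.78%, so these calls have no background of their own line.

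COLO720E was low for 5 genes, against 4.45% of all genes called down in that line. B2M was 8.55 in COLO720E, against 10.31 in the other lines (difference -1.77, standard error 0.28, adjusted p = 7.41e-06), and PSMB8, TAP2, TAP1 and PSMB9 were lower there by 1.76 to 1.31. FUOV1 was low for 4 genes, against 5.97% of all genes called down in it. PSMB8 was 5.24 in FUOV1, against 7.98 in the other lines (difference -2.74, adjusted p = 4.93e-12). Its arrays there read 4.38 and 6.10, and the difference lay between -3.60 and -1.88 over the alternative fits. Without replicate 1 of FUOV1 the call of TAP1 was lost (difference -0.82). OVCA420 was low for PSMB8, PSMB9 and B2M, CH1 and HEYC2 for PSMB8 and PSMB9, and UWB1.289 and OVCAR3 for TAP1 and PSMB9. The difference of B2M in OVCA420 was -2.20 on all arrays and -1.35 without the 3 that stand apart. PSMB9 differed by -1.75 in OVCA420 and -1.02 in HEYC2 on all arrays, and by -2.45 in OVCA420 and -1.48 in HEYC2 without the 3, and all of these calls held without them. OAW28 and TOV112D were low for PSMB8 alone, OV17R for TAP1 alone and JHOS4 for TAP2 alone. For the lines named after FUOV1 the share of all genes called down in the line is not given here. Over all 28 lines it was 3.56%, so these calls too have no background of their own line.

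Of the 52 calls, 41 held in every alternative fit with the same minimum difference, whichever array was left out. Without the 3 arrays that stand apart, 25 were up and 28 down. B2M was then lost in DOV13, OV7 and SKOV3 and TAP2 in JHOS4, with adjusted p under 0.05 but a difference below 1, and added were lower values of B2M in CH1 and FUOV1, of TAP1 in HEYC2 and OVCA420 and of TAP2 in OVCA420. B2M in DOV13 and SKOV3 was also lost without either array of its line, B2M in EFO21 without its replicate 2, PSMB8 in OV7 and in OVCA420 without the replicate 2 of the line, and PSMB9 in HEYC2 without its replicate 2 or without OVCA420 replicate 1, and after a further quantile normalization. That setting added B2M in CH1 (-1.01) besides TAP2 in HEYC2, and merging HEY with HEYC2 added TAP1 in CH1 (-1.02) and PSMB8 in the merged line (-1.09). B2M in OV7, at 1.00, was at the minimum itself and was lost in 25 alternatives, and TAP2 in JHOS4, at -1.01, in 6, among them leaving out FUOV1 replicate 2, JHOS4 replicate 2 or OVCA420 replicate 1.

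**Figure D2:**
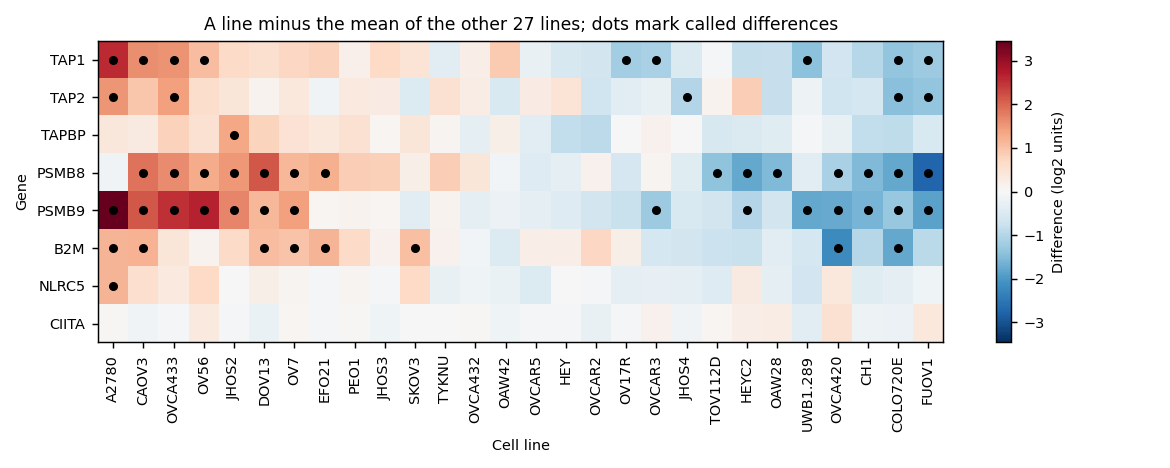
Difference of each line from the mean of the other 27 lines (log2 units, colour) for the 8 genes, lines in the same order. Dots mark the 52 called differences, 28 up on the left and 24 down on the right. PSMB9 in A2780 (3.46) and PSMB8 in FUOV1 (-2.74, from arrays that read 4.38 and 6.10) are the extremes.

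Over the 28 lines, the 7 class I genes were alike in their order. These correlations are descriptions over 28 line means that share arrays and normalization. Spearman's rho among the 21 pairs ran from 0.499 (TAP2 with TAPBP) through a median of 0.625 to 0.919 (TAP1 with PSMB9, the head-to-head pair). PSMB8 had a rho of 0.822 with PSMB9, 0.793 with TAPBP and 0.753 with B2M. NLRC5 had 0.501 with B2M, which became 0.765 without the 3 arrays. CIITA had rhos of -0.195 (B2M) to 0.311 (NLRC5) with the 7 genes, and without the 3 arrays these lay between -0.067 and 0.153.

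**Figure D3:**
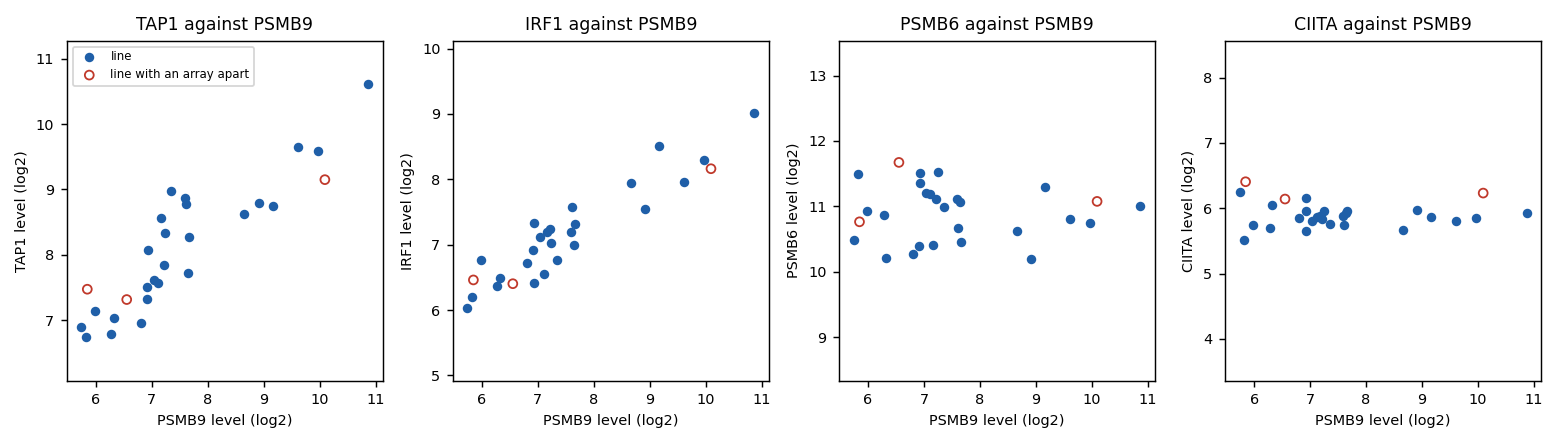
Line means (log2) of TAP1, IRF1, PSMB6 and CIITA against PSMB9 in 28 lines, with vertical axes of equal length. Open circles are the 3 lines with an array that stands apart. TAP1 (rho 0.919) and IRF1 (0.891) rise with PSMB9, while PSMB6 (-0.035) and CIITA (-0.020) do not.

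Of all other genes, IRF1, PLAAT4 and APOL6 recurred among those whose order was most like that of the class I genes. IRF1, the transcription factor that binds the ISRE, had the highest rho with PSMB9 (0.891), PSMB8 (0.782) and B2M (0.769) and the second highest with TAP1 (0.820), and these were 0.767 to 0.889 without the 3 arrays. PLAAT4, a phospholipid-modifying enzyme induced by retinoids and interferon, led for TAP1 (0.825) and TAPBP (0.783) and was among the first 3 for PSMB8, PSMB9 and B2M. APOL6, of the apolipoprotein L family, followed for PSMB9 (0.858), TAP1 (0.793) and TAPBP (0.732), with ZBED2, a zinc finger protein, also among the first 3 for TAPBP (0.737). For TAP2 the first 3 were DDX60L (0.756), PDCD1LG2, which encodes the checkpoint ligand PD-L2 (0.739), and APOL3 (0.724). HTATIP2 for PSMB8 (0.749) and MAP3K20 for B2M (0.731) were next. Without the 3 arrays they dropped to the 30th and 19th place, and APOL6 for TAPBP to the 11th.

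NLRC5 was most like PSG1 (0.749), the class I pseudogene HLA-L (0.744) and ABTB1 (0.738), at 0.662, 0.707 and 0.687 without the 3 arrays. PLAAT4 was then in the first place (0.709, against 0.589 on all arrays) and PSG1 in the 6th. CIITA was most like PNPLA1 (0.860), ZNF835 (0.858) and TMEM239 (0.851), and without the 3 arrays these fell to 0.663, 0.600 and 0.756, so the likeness moved with those arrays.

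IRF1 itself ran from 6.03 in FUOV1 through 7.07 to 9.01 in A2780, where its arrays read 9.09 and 8.93. It was called up in 4 lines, A2780 (1.92 higher), JHOS2 (1.40), OVCA433 (1.17) and OV56 (1.04), which are also lines with PSMB9 up. CAOV3, OV7 and DOV13 had PSMB9 up without a call of IRF1. As IRF1 had the highest rho with PSMB9, calls in the same lines in part restate that likeness. Of 10 measured genes of interferon gamma signalling, 9 passed the F test (90%, against 65.7% of all genes). Calls numbered 13 up (4.64%) and 10 down (3.57%) among 280, near the 3.78% and 3.56% of all genes. The largest ranges were those of IRF8 (4.25, high in OVCAR2 at 8.70 and JHOS4 at 8.05), the kinase JAK1 (3.34, or 3.62 with OV56 at the top without the 3 arrays), the receptor chain IFNGR1 (3.01) and IRF1 (2.98). IRF8, an interferon-responsive factor of myeloid and B cells, had a rho of -0.014 with PSMB9, JAK1 of 0.453 (0.310 without the 3 arrays) and IFNGR1 of -0.093. Of 16 measured interferon-stimulated genes, 9 had a rho over 0.5 with PSMB9 and their median was 0.517, while 0.958% of all genes exceeded 0.5 and the median of all was -0.002. Among the 4 with the largest ranges, IFIT1, an inhibitor of viral RNA translation, had 0.565 and was highest in A2780 (10.66), IFIH1, an RNA sensor, had 0.541, IFI44 0.383 and BST2, which tethers virions, 0.327.

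The wide range of PSMB8 and PSMB9 was not shared by the constitutive subunits they replace. PSMB5 and PSMB6, the counterparts of PSMB8 and PSMB9, ran over 1.72 and 1.48 log2 units, with SDs over lines of 0.43 and 0.42, against 1.21 for PSMB8 and 1.38 for PSMB9. Spearman's correlation was -0.314 between PSMB8 and PSMB5 and -0.035 between PSMB9 and PSMB6. All 7 constitutive β-subunit genes passed the F test, as 65.7% of all genes did, with ranges of 1.08 to 2.01 (PSMB2). Their calls numbered 2 up (1.02%) and 1 down (0.51%) among 196, against 3.78% and 3.56% of all genes. The other inducible subunit gene, PSMB10, ran over 1.32 log2 units, from 6.12 in OAW42 to 7.44 in OV56, and had a rho of 0.345 with PSMB9. Without the 3 arrays JHOS2 was its highest line (7.32) and rho was 0.469. PSME2 and PSME1, subunits of the PA28 activator, ran over 2.88 and 2.17 with rhos of 0.414 and 0.458. PSME2 was up in A2780 by 1.58, in JHOS4 by 1.04 and in CAOV3 by 1.02, and PSME1 in CAOV3 by 1.01. POMP, the assembly chaperone, ran over 1.89 and did not pass the F test (adjusted p = 0.0812).

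Among 7 measured genes of peptide loading and trimming, 5 passed the F test (71.4%, against 65.7% of all genes), with 16 up (8.16%) and 19 down (9.69%) calls among 196, against 3.78% and 3.56% of all genes. ERAP1, which trims peptides in the endoplasmic reticulum, ran from 6.23 in OVCA420 (6.49 in SKOV3 as the lowest without the 3 arrays) to 9.46 in A2780, where it was 1.93 higher than in the other lines, and had a rho of 0.647 with PSMB9. ERAP2, its partner, ran over 5.52 log2 units, from 4.38 in TOV112D to 9.90 in SKOV3, and was called up in 10 lines. In HEYC2, one of these, its arrays read 6.32 (the array that stands apart) and 9.86. The chaperone gene CANX (range 2.93, or 1.49 without the 3 arrays) did not pass the F test (adjusted p = 0.0963), and TAPBPL, a tapasin relative, did, with a range of 2.36 and CAOV3 at the top (8.06). The heavy chain genes were not analysed here.

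Of the 7 measured genes of the X and Y box complex through which NLRC5 and CIITA act, 5 passed the F test (71.4%, against 65.7% of all genes). Calls numbered 4 up (2.04%) and 9 down (4.59%) among 196, against 3.78% and 3.56% of all genes. NFYB ran over 2.97 log2 units, RFX5 over 2.32, CREB1 over 2.23 and NFYA over 2.16. RFX5 and NFYA passed the test, NFYB and CREB1 did not (adjusted p = 0.0535 and 0.177), and all 4 were lowest in OVCA420, one of the lines with an array that stands apart. Without the 3 arrays the ranges were 1.49 for NFYB, 1.75 for RFX5, 1.08 for CREB1 and 1.69 for NFYA, and RFX5 alone was still lowest in OVCA420. Spearman's correlation with PSMB9 was 0.105 for NFYB, 0.276 for RFX5, 0.320 for CREB1 and 0.014 for NFYA.

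For class II, CIITA was called in no line. Other genes of the route were called up in 1 line (HLA-DMA) to 7 lines (IFI30), and HLA-DOA, HLA-DQA1 and HLA-DQB1 in no line. Some of the lines with such calls were high for class I (CAOV3, A2780) and some low (FUOV1, CH1). Of 13 measured class II genes other than the named ones, 10 passed the F test (76.9%, against 65.7% of all genes), with 34 up (9.34%) and 14 down (3.85%) calls among 364, against 3.78% and 3.56% of all genes, and no gene had a rho over 0.5 with PSMB9 (median 0.103). IFI30, the thiol reductase GILT that unfolds antigens in lysosomes, ran from 6.58 in HEYC2 through 9.25 to 11.54 in OAW42 and was up in 7 lines and down in 6. CTSS, the protease that cuts the invariant chain, read 8.19 and 8.24 in TYKNU and 7.83 and 7.80 in JHOS2, against a median of 5.22, and was 2.83 and 2.41 higher there than in the other lines. CTSL, a related protease, was highest in SKOV3 at 10.87 (2.16 higher). HLA-DRB5 read 7.63 and 7.71 in TYKNU, against 4.17 in the other lines (difference 3.50, standard error 0.14, adjusted p = 6.76e-19), and its nearly identical DRB relatives, which some haplotypes carry in its place, make this reading uncertain.

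HLA-DPA1, HLA-DPB1, HLA-DMA, HLA-DMB, HLA-DOA, HLA-DOB, HLA-DQA1 and HLA-DQB1 are added because of their values. HLA-DPA1 and HLA-DPB1 encode the chains of the DP molecule and had a rho of 0.730 with each other. HLA-DPA1 was 2.69 higher in EFO21 (7.95 and 9.14), 1.83 in OVCA432, 1.59 in OV7 and 1.33 in A2780 than in the rest, and HLA-DPB1 2.24 higher in CAOV3 (8.02 and 7.63), 1.68 in EFO21 and 1.11 in OV56, so EFO21 was the only line called for both. HLA-DMA and HLA-DMB encode the DM molecule that loads class II. HLA-DMA was called up only in CAOV3 (8.46 and 8.48, 1.71 higher), and HLA-DMB in OAW42 (9.21 and 9.11, 2.66 higher), FUOV1 (2.47) and CH1 (1.30). HLA-DOB, of the DM inhibitor DO, was up in CAOV3, PEO1, OVCAR3 and OVCA433 by 1.28 to 1.03. CIITA read 5.88 in EFO21, 5.80 in CAOV3, 5.77 in OAW42 and 5.92 in TYKNU, near its median of 5.87, and 6.26 in FUOV1 and 6.23 in OV56 (5.88 without its array that stands apart), which were among its 3 highest lines. Over 28 lines CIITA had rhos of 0.499 with HLA-DPA1, 0.400 with HLA-DPB1 and 0.527 with HLA-DOA, which did not pass the F test (adjusted p = 0.16). These were 0.390, 0.362 and 0.444 without the 3 arrays. HLA-DQA1 and HLA-DQB1 did not pass the F test either (adjusted p = 0.445 and 0.426). Their rhos with CIITA were 0.452 and 0.421, or 0.352 and 0.266 without the 3 arrays. CIITA had rhos of 0.137 to 0.245 with HLA-DOB, HLA-DMB, HLA-DRB5 and HLA-DMA. With the 18 leukocyte genes its rhos ran from -0.167 to 0.595, or -0.223 to 0.352 without the 3 arrays. On all arrays, values this high were thus not particular to class II genes. The leukocyte genes called in CAOV3, OV7 and TYKNU, given above, lie in lines also called for class II genes, and their part in this was not tested. In these cultures, a higher share of cells with a transcript and more transcript in each cell cannot be told apart.

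**Figure D4:**
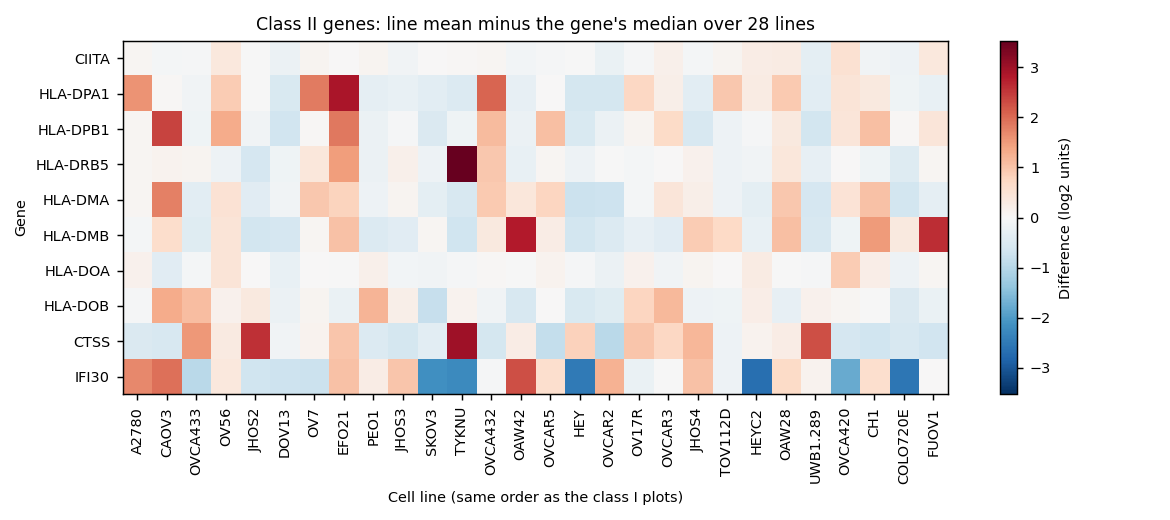
Line mean minus the median of the gene over 28 lines (log2 units, colour) for CIITA and 9 other class II genes, lines in the order of the class I plots. CIITA varies by 0.88 in all, while TYKNU is high for HLA-DRB5 and CTSS, EFO21 for HLA-DPA1 and HLA-DPB1, CAOV3 for HLA-DPB1 and HLA-DMA, and OAW42 for HLA-DMB and IFI30.

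Whether the genes follow the EMT gradient was asked with a score rebuilt for each line from 184 epithelial and 200 mesenchymal signature genes, none of them among the 8, which is higher where mesenchymal genes are. It ran from -0.819 in PEO1 to 0.72 in TOV112D. By Spearman's rho with 100000 permutations over 28 lines, adjusted over all 18377 genes, 0 of the 8 genes passed an adjusted p under 0.05, against a background of 0.778%, and 2 had an unadjusted p under 0.05, as 1854 (10.1%) of all genes did. For TAPBP, rho was -0.498 (permutation p = 0.00752, and 0.242 after adjustment). Pearson's r for TAPBP was -0.506 (permutation p = 0.00587, and 0.204 after adjustment), and it became -0.454 once PEO1 and TOV112D, whose scores are farthest from the median, were left out. Its rho was -0.345 in the 10 DMEM lines, -0.45 in the 9 RPMI lines and -0.321 in the 7 DMEM/F12 lines. For PSMB8, rho was -0.439 (permutation p = 0.0205, and 0.362 after adjustment) and r was -0.408 (permutation p = 0.03185, and 0.441 after adjustment), or -0.347 without PEO1 and TOV112D. Within the media its rho was -0.345 (DMEM), -0.467 (RPMI) and -0.5 (DMEM/F12).

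The other 6 genes had rhos of -0.229 (PSMB9) to -0.028 (CIITA), with adjusted p-values of 0.782 to 0.988. TAP1 had -0.210, NLRC5 -0.162, B2M -0.093 and TAP2 -0.041. The extremes of the score held no one class I level, since A2780, first for TAP1, TAP2, PSMB9 and NLRC5, scored 0.712, and OVCA433 and CAOV3, each among the first 4 for TAP1, TAP2, PSMB8 and PSMB9, scored -0.614 and -0.465.

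**Figure D5:**
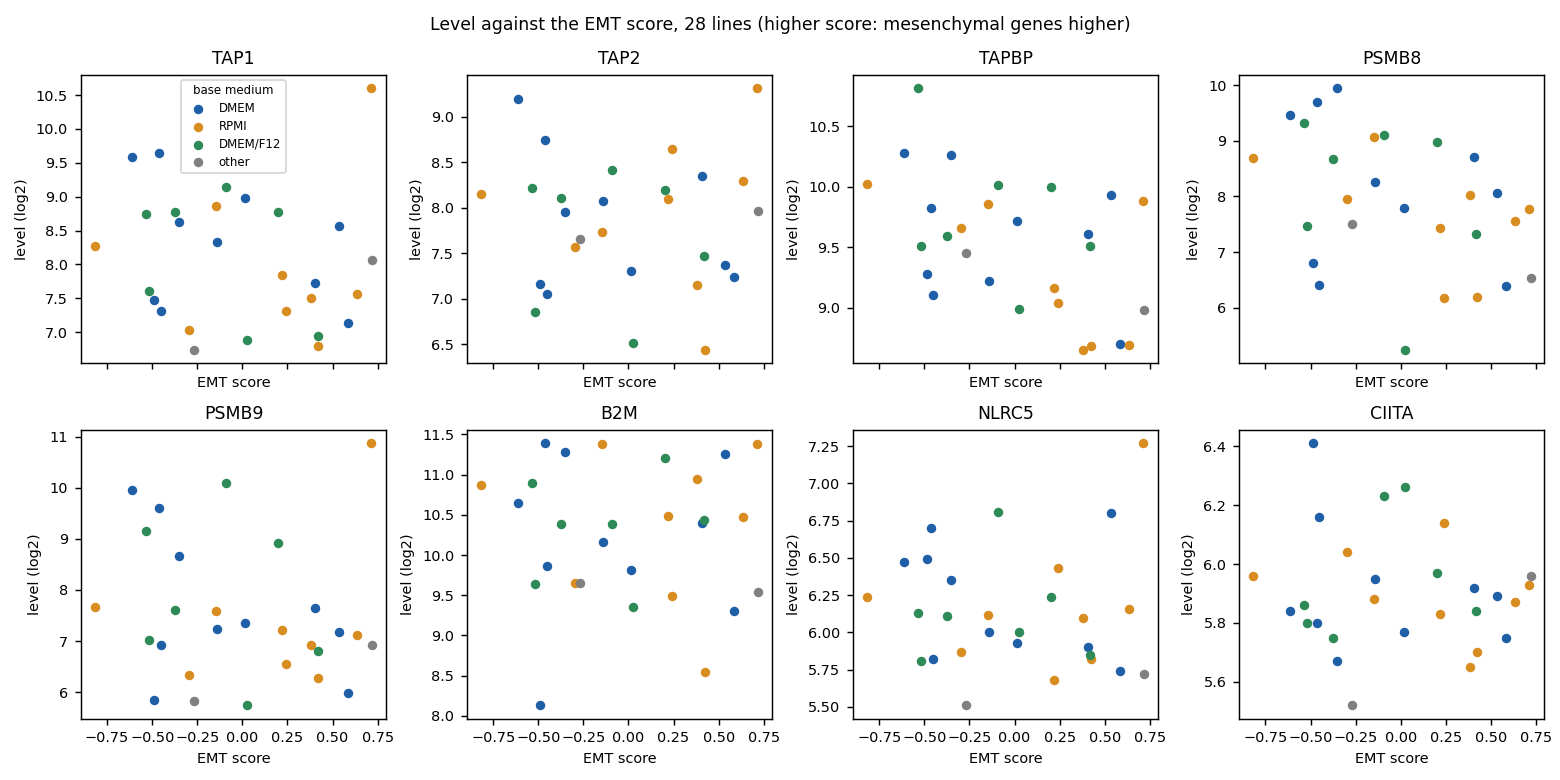
Line mean (log2) of the 8 genes against the EMT score (no unit), coloured by base medium, 28 lines. TAPBP and PSMB8 slope downwards (rho -0.498 and -0.439, neither past the threshold after adjustment), and A2780 lies at the top right for TAP1, TAP2, PSMB9 and NLRC5.

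Base medium was compared over 26 lines with limma's F test on line means. None of the 8 genes was called (unadjusted p of 0.217 to 0.942), against a background of 0% of all genes, of which 350 had an unadjusted p under 0.05. TAPBP, the gene with the smallest p, averaged 9.59 ± 0.51 with DMEM (SD, n = 10 lines), 9.29 ± 0.57 with RPMI (n = 9) and 9.78 ± 0.57 with DMEM/F12 (n = 7). PSMB9 averaged 7.64 ± 1.39, 7.39 ± 1.40 and 7.91 ± 1.54 for DMEM, RPMI and DMEM/F12 lines. Whether the relation to the score differed between media was tested as an interaction, and 0 of the 8 genes were called, against 0.00544% of all genes.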

How the data were processed

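The data are 56 arrays (Affymetrix Human Gene ST) of 28 ovarian cancer cell lines. The deposited values are log2 intensities that the authors made by RMA with affy 1.42.3, as the submitters' processing notes say, and ran from 1.35 to 14.89 with array medians of 5.961 to 6.306. Which arrays were normalized together is not given in the sources used here. Gene names came from the platform's annotation. Of 28869 probe sets, 19310 carried 1 gene and gave 18377 genes, and the brightest was kept for the 685 genes with several. Lines were compared with limma 3.58.1 (R 4.3.3, statmod 1.5.0, trend and robust settings), with Benjamini-Hochberg adjustment over all genes. The moderated SD is limma's. For the EMT score, a signed Kolmogorov-Smirnov statistic was taken between mesenchymal and epithelial signature genes, after the median of the lines was taken off each gene. It is a rebuilt form of the study's score. Correlations and motif searches used Python 3.11.15, numpy 2.4.6, pandas 2.3.3 and scipy 1.17.1.

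The genes and gene lists were chosen with earlier results of these data known. By the rule for naming, the text gives the members, up to 4 genes of each other list with the largest range of line means, genes of a list called in 5 or fewer cases, for each member the 3 genes most like it by Spearman's rho, and its 3 highest and 3 lowest lines. PSMB6 was named as the counterpart of PSMB9, and the genes said to be added were chosen once their values were known. The limma fits and the score correlations were tested on simulated data. The number of arrays limits the precision. Alternatives were a replicate block, limma without trend and robust settings, each array left out, the 3 doubtful arrays left out, a further quantile normalization (array medians shift by at most 0.229), averaging a gene's probe sets, a filter on dim genes (13782 left), HEY and HEYC2 merged, no minimum difference, single replicates, and other forms of the score and of the correlation. Values of list genes without the 3 arrays, and NLRC5 in OV56 without its doubtful array, were chosen after seeing the data. The refits of the score without 1 array used 1 permutation distribution for all genes.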

Additional observations from a re-analysis of the deposited data

Results flagged for a closer look

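Within the lines that share a base medium, 24 sets of line means (8 genes in 3 media) were searched for a line far from the others, and 3 were found, where chance alone gives about 1 in 20. PSMB9 in A2780 was 10.87 among 9 RPMI lines, with the next line at 7.66. NLRC5 in A2780 was 7.27 among the same lines, with the next at 6.43. NLRC5 in OV56 was 6.81 among 7 DMEM/F12 lines, with the next at 6.24, and this mean includes the array of OV56 that stands apart (7.10, against 6.52 on its duplicate). With the duplicate alone the gap of OV56 was 0.396 of the range, below the critical value of 0.568, so it no longer stood apart. For none of the 8 genes was the relation to the EMT score called different between media.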

How the results depend on the processing

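Averaging probe sets could change the values of TAP2 and TAPBP only, and the F test uses no minimum difference. With these settings counted in, the number of genes that differed between lines was 7 in 60 settings, the main one included, and 8 in 5. With the replicate block, which the labels' numbers do not justify (differences between duplicates correlated from -0.887 to 0.871 over 378 pairs of lines, with a median of -0.000247, and 24.1% over 0.1), it was 7, with 28 up and 24 down calls. Leaving out each array in turn gave 7 to 8, 26 to 28 up and 23 to 26 down calls, and 0 genes for medium and for the score. With no minimum difference, 57 were up and 56 down. The median range over the genes, 3.07, was 3.70 with replicate 1 alone. The median rho of the 21 class I pairs, 0.625, was 0.706 without the 3 arrays, 0.703 and 0.673 with replicate 1 or 2 alone and 0.677 by Pearson's r, alternatives chosen after seeing the data.

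Weak relations to the score changed sign. For TAP2 rho was 0.051 without the 3 arrays, 0.108 with replicate 2 alone, 0.040 when means were subtracted to give the score, 0.043 from uncentred values and -0.086 to 0.015 without 1 array. For B2M it was 0.028 with replicate 2 alone, 0.032 from uncentred values, 0.0092 centred within media and 0.022 without the 2 farthest lines. For NLRC5 Pearson's r was 0.0019 and the limma slope 0.0017, and for CIITA rho was -0.115 to 0.033 without 1 array. The cause was not tested. With 2 arrays a line, small differences between lines such as those of CIITA are at the limit of what these arrays resolve.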

Other observations

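CD74 and HLA-DRA were covered only by probe sets that the annotation gives to a further gene, so these values belong to neither gene alone. The probe set annotated to CD74 and ROS1 ran from 5.69 in OAW42 through a median of 6.81 to 8.79 in PEO1, followed by CAOV3 at 8.54, EFO21 at 8.47, OVCA432 at 8.44 and OAW28 at 8.34. CD74 is the invariant chain of class II, and ROS1 is a receptor tyrosine kinase. The 3 probe sets annotated to HLA-DRA and HLA-DQA1 had medians of 4.81 to 5.02 and were high in OAW28 (7.64 to 8.34), CAOV3 (7.48 to 8.08) and OVCA432 (7.35 to 8.23). OV7 read 6.60 and 8.63 on its 2 arrays for one of them, so its duplicates differ. OAW28, CAOV3 and OVCA432 were thus among the highest 5 lines for both kinds of probe set, and CIITA there was 6.16, 5.80 and 5.95. The rho with CIITA over 28 lines was 0.062 for the first and 0.259 to 0.374 for the others.

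A2780, with PSMB9 and TAP1 at the top and PSMB8 in the 16th place, read PSMB8 alike on both arrays (7.89 and 7.65).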
